A study of Mus musculus with 4 samples.

Results

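Acinar identity transcription factors are the regulators that make and keep the enzyme-secreting cells of the exocrine pancreas. The 9 genes described here, Ptf1a, Rbpjl, Bhlha15, Nr5a2, Gata4, Gata6, Hnf4a, Mecom and Foxp2, were taken by symbol from the 22180 genes with a uniquely annotated row on the arrays, and all 9 were measured. Each gene was represented by its brightest row, and no filter on dim values was applied. Whole pancreas was compared between 2 IFRD1 null mice and 2 wild-type mice, all 8 weeks old and all given cerulein intraperitoneally at 100 µg/kg, 6 times a day on alternate days, with tissue taken on day 5. Cerulein is a cholecystokinin analog that over-stimulates acinar cells and causes acute pancreatitis. Ifrd1 encodes a transcriptional co-regulator, and the labels do not say how the null allele was made or in which cells it acts. Uninjured pancreas was not analysed here, so every difference is between genotypes within injured tissue.

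Acinar cells are held in their mature state by a small network of factors that act together. Ptf1a, a basic helix-loop-helix (bHLH) protein, pairs with a common E protein and with a member of the RBP-J family to form the trimeric PTF1 complex, which binds a bipartite site in the promoters of digestive enzyme genes. In the mature acinar cell the RBP-J position is taken by Rbpjl, the pancreas-restricted paralog of Rbpj, and Nr5a2, an orphan nuclear receptor, works with PTF1 on the same enzyme genes. Bhlha15, also called Mist1, is the bHLH factor that scales up the secretory apparatus. After injury by cerulein acinar cells lower these factors for a time and take on features of duct cells before they recover.

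The promoters of Rbpjl, Bhlha15 and Ptf1a are shown because they belong to the 3 factors at the core of the network, and because Rbpjl is itself a known target of the PTF1 complex. They are RefSeq windows on GRCm38.p6 that run from 250 bases before to 50 bases after an annotated start, read 5′ to 3′ on the strand of the gene. Capitals mark CANNTG, the E-box bound by bHLH factors, and TGGGAA, the core of the RBP-J family site, searched on both strands.

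Rbpjl, chr2:164402944-164403243, + strand: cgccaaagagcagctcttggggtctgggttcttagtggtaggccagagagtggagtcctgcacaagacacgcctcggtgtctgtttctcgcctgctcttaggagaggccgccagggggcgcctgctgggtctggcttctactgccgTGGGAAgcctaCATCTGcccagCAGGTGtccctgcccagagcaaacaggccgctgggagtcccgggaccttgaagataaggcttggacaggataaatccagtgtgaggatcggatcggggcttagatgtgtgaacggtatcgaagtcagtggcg

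Bhlha15, chr5:144190036-144190335, + strand: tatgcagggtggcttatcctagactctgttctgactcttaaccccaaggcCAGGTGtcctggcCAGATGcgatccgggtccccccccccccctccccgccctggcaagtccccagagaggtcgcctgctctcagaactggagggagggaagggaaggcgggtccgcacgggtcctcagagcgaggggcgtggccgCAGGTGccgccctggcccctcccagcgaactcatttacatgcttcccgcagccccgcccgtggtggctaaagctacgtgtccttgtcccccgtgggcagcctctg

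Ptf1a, chr2:19445413-19445712, + strand: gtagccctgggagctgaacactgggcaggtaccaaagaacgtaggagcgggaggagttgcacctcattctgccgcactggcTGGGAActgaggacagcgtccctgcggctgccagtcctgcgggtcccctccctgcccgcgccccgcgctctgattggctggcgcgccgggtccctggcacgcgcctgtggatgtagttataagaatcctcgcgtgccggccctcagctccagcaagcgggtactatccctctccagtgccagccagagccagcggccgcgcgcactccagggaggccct

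In the Rbpjl window the RBP-J core began 104 bases before the start and was followed by an E-box after a gap of 5 bases and by another after a gap of 16 bases. This is the layout of a PTF1 site, here counted as both motifs with a gap of at most 30 bases, and 6.97% of the 32851 promoter windows in the table held such a pair. Bhlha15 had 3 E-boxes and no RBP-J core, and Ptf1a had 1 RBP-J core and no E-box. The first E-box of Bhlha15 overlapped a match to CAAGGNCA, the site of Nr5a2, on its 5′ side. Over the 9 windows of the 6 factors with an entry, an E-box lay in 7 (72.3% of all windows), an RBP-J core in 2 (25.6%), the GATA motif AGATAA in 3 (11.2%), CAAGGNCA in 1 (6.71%) and the pair in 1. A match describes these letters only. Gata4, Gata6 and Foxp2 are named without a promoter.

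The arrays were checked on Ifrd1 first. Its transcript was at 6.99 and 7.09 in the IFRD1 null arrays, against 9.04 and 9.07 in the wild-type arrays (log2 expression level), as the labels have it. The labelled tissue was checked on digestive enzyme genes, of which 0 of 19 measured lay below the median of all rows in every array. Across all 22180 genes, limma with Benjamini-Hochberg adjustment called 1 gene at adjusted p under 0.05, Uty, a Y-linked gene at 2.25 and 2.36 in the null arrays, against 6.41 and 6.40 in the wild-type arrays. Xist, which is expressed from the inactive X chromosome of females, was at 10.15 and 9.58 in the null arrays, against 2.56 and 3.54 in the wild-type arrays. Judged by this pair of genes, both null mice were female and both wild-type mice male, so genotype and sex cannot be told apart in any comparison here. Litters and days of the mice are not given in the labels, and no exact permutation test on 2 arrays against 2 can pass 0.05.

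None of the 9 factors passed the test between genotypes. The count was 0 of 9 at limma adjusted p under 0.05, where 0.00451% of all genes passed. It was also 0 of 9 at an unadjusted p under 0.05, where 6.91% did. Ifrd1 itself, at -2.02, was not called either (limma adjusted p = 0.138). A miss by this test thus does not show that a factor was unchanged. In the mean, 7 factors were lower and 2 higher in the null, and the median difference over the 9 was -0.15 (log2, IFRD1 null minus wild type). Over all genes the median was -0.01 with 52.6% lower, and over the 11090 genes above the median level it was -0.07 with 67.3% lower. Both null arrays lay below both wild-type arrays for 3 factors, Ptf1a, Gata6 and Hnf4a, or 3 of 9 against 19.7% of all genes and 29.1% of genes above the median level. In bulk tissue, fewer cells of a type and less RNA per cell cannot be told apart. No factor had both null arrays above both wild-type arrays (0 of 9, against 16.1% of all genes). The plot of the factors by array gives all values.

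**Figure D1:**
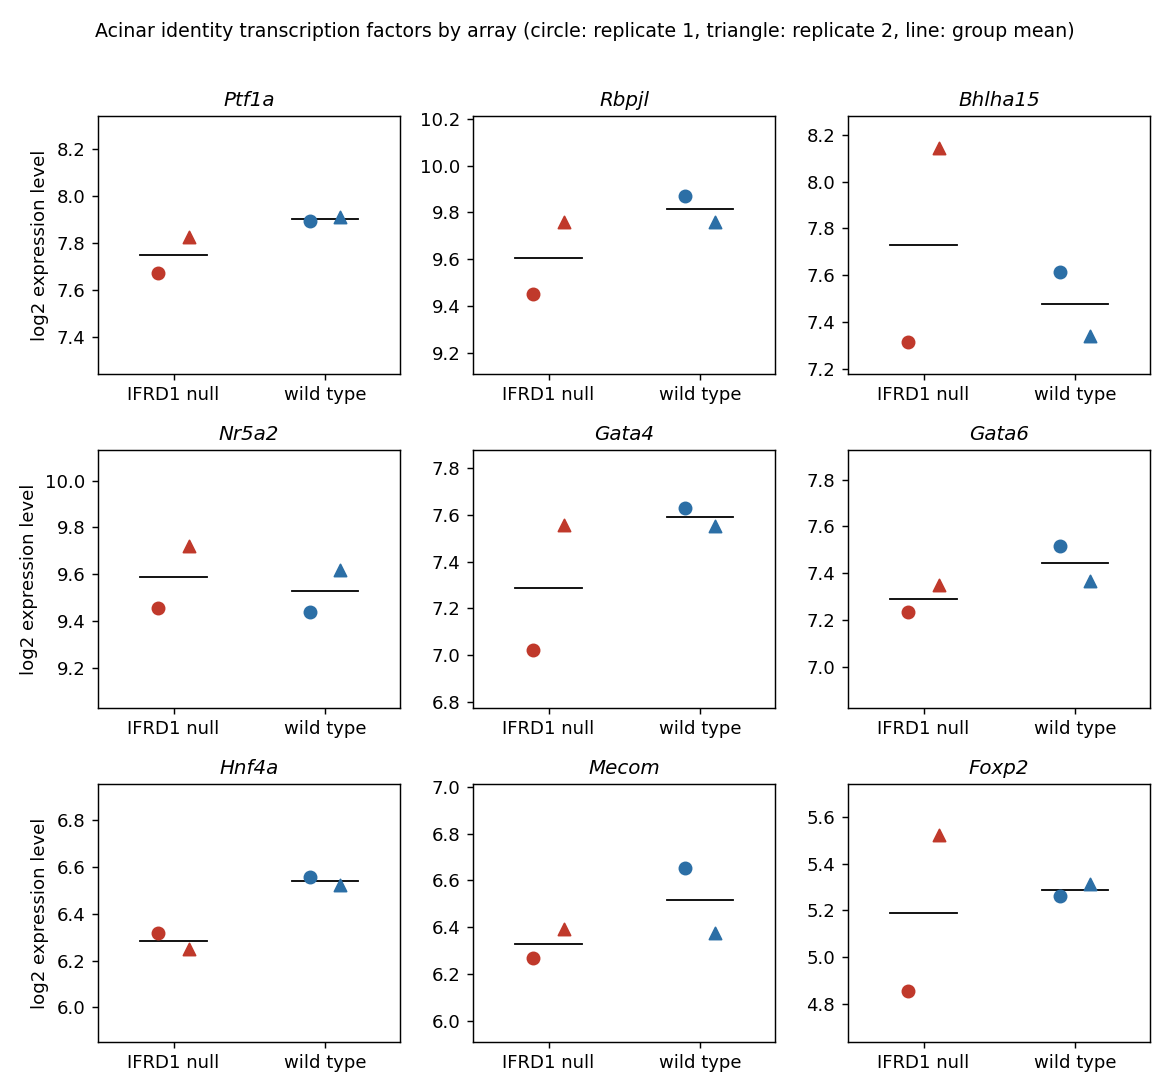
Log2 expression level of each factor (vertical axis, each panel spanning the same number of log2 units) in the IFRD1 null arrays on the left and the wild-type arrays on the right. Circles are replicate 1, triangles replicate 2 and lines group means (n = 2 each). Hnf4a shows tight pairs that lie apart, whereas Bhlha15, Gata4 and Foxp2 show null arrays that lie far from each other.

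The PTF1 complex came first. Ptf1a, its bHLH subunit, stood at 7.67 and 7.83 in the null arrays, against 7.90 and 7.91 in the wild-type arrays. Both null arrays were lower, and the gap between the group means, -0.15 ± 0.11 (SE), was a 1.11-fold difference that did not pass (limma adjusted p = 0.780). The 95% interval, from -0.45 to 0.15, takes in no difference and also a moderate loss. A dimmer row annotated to Ptf1a gave a difference of -0.16, and it lay above the median of all rows in 1 of 4 arrays.

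Rbpjl, the acinar-specific partner of Ptf1a, was at 9.45 and 9.76 in the null arrays, against 9.87 and 9.76 in the wild-type arrays. The first null array was the lowest of the 4, and the second was level with wild type 2, so the groups overlapped. The difference was -0.21 ± 0.15 (SE, limma adjusted p = 0.779, interval from -0.61 to 0.19). Without IFRD1 null 1 it was -0.05, and without IFRD1 null 2 it was -0.37.

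The other subunits and cofactors of PTF1 were of mixed direction. Rbpj, the general paralog that precedes Rbpjl in development, stood at 7.52 and 7.25 in the null, against 7.35 and 7.38 in wild type, a difference of 0.02 ± 0.14 (SE). Of the E proteins that can pair with Ptf1a, Tcf3 was at -0.23 ± 0.22, Tcf12 at -0.15 ± 0.15 and Tcf4 at -0.10 ± 0.12. The acetyltransferases Kat2b and Ep300 were at -0.06 ± 0.11 and 0.20 ± 0.22, and Snw1, an RBP-J cofactor, was at -0.15 ± 0.11. Of these 7 genes 0 passed limma's test, 2 were higher and 5 lower in the null, and their median was -0.10. Between the null arrays they had a median gap of 0.00, with Tcf3 and Ep300 higher in IFRD1 null 1 by 0.58 and 0.57.

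Bhlha15 was the most variable of the 9 factors. It was at 7.31 and 8.14 in the null arrays, against 7.62 and 7.34 in the wild-type arrays. The null arrays were thus the lowest and the highest of the 4, and they lay on either side of both wild-type values. Their gap was 0.83, a 1.78-fold difference between mice of 1 genotype, and 97.9% of all genes had a smaller gap between the null arrays. The genotype difference was 0.25 ± 0.31 (SE, limma adjusted p = 0.845, interval from -0.58 to 1.08). It was 0.67 without IFRD1 null 1 and -0.16 without IFRD1 null 2, so its direction rested on a single array.

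Genes listed here as targets of Bhlha15 differed between the null arrays in the same direction as the factor, but so did acinar genes in general. Of 8 such genes 7 were lower in IFRD1 null 1 than in IFRD1 null 2, with a median gap of -0.70. Rab3d and Rab26, small GTPases of secretory granules, had gaps of -0.61 and -0.85. Copz2, a coatomer subunit, was at -0.80, Serpini1 at -0.83 and Tmed6, a cargo receptor of the early secretory pathway, at -1.53, while Gjb1, the connexin of acinar gap junctions, was at -0.50 and Atp2c2, a Golgi calcium pump, at -0.12. Cib1 went the other way at 0.18. Between genotypes 0 of 8 passed, with 5 higher and 3 lower and a median of 0.06. The split of the null arrays was not particular to these targets. Acinar genes that are neither factors nor enzymes were lower in IFRD1 null 1 for 15 of 16, with a median gap of -0.72. Digestive enzymes were lower there for 19 of 19, with a median gap of -0.45, against 11096 of all 22180 genes. Each of these gaps is between 2 single mice and has no test. Whether the targets followed Bhlha15 itself was not tested.

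Nr5a2 had the smallest genotype difference of the 9 factors. It stood at 9.45 and 9.72 in the null arrays, against 9.44 and 9.62 in the wild-type arrays. The groups overlapped, and the difference of 0.06 ± 0.15 (SE, limma adjusted p = 0.927) had an interval from -0.33 to 0.45. Its sign turned without IFRD1 null 2 (-0.08) and without wild type 1 (-0.03). Nr0b2, a corepressor that binds Nr5a2, was at 5.80 and 6.12 in the null, against 6.44 and 5.62 in wild type, a difference of -0.07 ± 0.31.

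The GATA factors act in early pancreas formation, and Gata6 is further needed to keep acinar cells differentiated. Gata4 was at 7.02 and 7.56 in the null arrays, against 7.63 and 7.55 in the wild-type arrays. IFRD1 null 1 was set apart from the other 3 arrays, which lay within 0.08 of each other. The difference of -0.30 ± 0.21 (SE, limma adjusted p = 0.775, interval from -0.86 to 0.25) was the largest of the 9 in size. It was -0.57 without IFRD1 null 2 and -0.03 without IFRD1 null 1.

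Gata6 was at 7.23 and 7.35 in the null arrays, against 7.52 and 7.37 in the wild-type arrays. The groups did not overlap, though IFRD1 null 2 and wild type 2 were nearly level. The difference was -0.15 ± 0.12 (SE, limma adjusted p = 0.783, interval from -0.47 to 0.16), and it was -0.08 without wild type 1. The GATA cofactors Zfpm1 and Zfpm2 were at 0.04 ± 0.10 and 0.00 ± 0.22.

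Hnf4a, a nuclear receptor shared by liver, gut and pancreatic epithelium, had the clearest separation of the genotypes. It was at 6.32 and 6.25 in the null arrays, against 6.56 and 6.52 in the wild-type arrays. Replicates differed by 0.07 in the null and by 0.04 in wild type, while the group means differed by 0.26, so the gap was larger than the spread between replicates. The fold was 1.19 (lower in the null). The SE was 0.10 and the interval ran from -0.53 to 0.02, and limma gave an adjusted p = 0.722, so the gene was not called. With each array left out in turn the difference ran from -0.29 to -0.22. Hnf4a was also the single factor of the 9 that was not lower in IFRD1 null 1 than in IFRD1 null 2.

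Hnf4a is expressed by gut, duct and islet epithelium as well, and markers of these cells are given beside it. Intestinal markers, with 7 of 18 below the median of all rows in every array, had summed linear levels of 408 and 549 in the null arrays, against 729 and 405 in the wild-type arrays, with 9 higher and 9 lower and a median of -0.03. Over the 5 intestinal markers above the median level the median was -0.59. That filter used the mean over all arrays, so a high wild-type value alone could carry a marker past it. This median can thus lean towards lower values in the null. Groups did not overlap for 7 of the 18. Of these, 5 of the 18 were lower in the null, against 19.7% of all genes, and 2 higher, against 16.1%. Vil1, a microvillus protein, was at -0.97 ± 0.25 and Slc5a1, a glucose transporter, at -0.59 ± 0.17, while Krt20, a keratin, was at 0.40 ± 0.29 (SE). Wild type 1 had the highest sum of the list and lay above wild type 2 for 15 of 18 markers, with a median gap of 0.38. The median difference of the list was 0.11 without wild type 1 and -0.25 without wild type 2. Without wild type 1 the Hnf4a difference was -0.24. Duct cell markers were lower for all 11 measured, with a median of -0.36 and sums of 4637 and 4735 in the null, against 5676 and 5830 in wild type, and none lay below the median of all rows in every array (0 of 11). The keratin Krt19 was at -0.59 ± 0.12, the chloride channel Cftr at -0.49 ± 0.11 and the mucin Muc1 at -0.15 ± 0.16. Islet markers were lower for 9 of 13, with a median of -0.21 and sums of 3410 and 3427 in the null, against 3742 and 3261 in wild type. The beta cell genes G6pc2 and Iapp were at -0.74 ± 0.16 and -0.65 ± 0.15, and glucagon, Gcg, at 0.24 ± 0.12. Of each of these 3 marker lists 0 genes passed limma's test. The part of intestinal, duct and islet cells in the Hnf4a values was not tested. Its paralog Hnf4g lay below the array median in every array (3.68 and 3.54 in the null, against 3.66 and 3.80 in wild type).

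Mecom, which encodes the zinc finger protein Evi1, stood at 6.27 and 6.39 in the null arrays, against 6.65 and 6.38 in the wild-type arrays. Wild type 1 was the highest and the other 3 arrays lay close together. The difference of -0.19 ± 0.14 (SE, limma adjusted p = 0.783, interval from -0.57 to 0.20) was -0.05 without wild type 1 and -0.32 without wild type 2. A dimmer row of Mecom gave 4.09 and 4.45 in the null, against 4.45 and 4.43 in wild type. Mecom is also expressed by endothelial cells, whose markers were lower for 11 of 12, against 52.6% of all genes and 67.3% of genes above the median level. Both null arrays lay below both wild-type arrays for 8 of 12, against 19.7% and 29.1%. They lay above for 0 of 12, against 16.1% of all genes. The endothelial markers had a median of -0.15 and sums of 910 and 860 in the null, against 1069 and 1038 in wild type. Among them Plvap was at -0.60 ± 0.15, Emcn at -0.36 ± 0.10 and Eng at -0.31 ± 0.12. The part of endothelial cells in the Mecom values was not tested.

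Foxp2, a forkhead factor found in acinar cells, was at 4.86 and 5.52 in the null arrays, against 5.26 and 5.31 in the wild-type arrays. As for the other 8 factors, every value lay above the median of all rows of its array. As with Bhlha15, the null arrays were the lowest and the highest of the 4. The difference was -0.10 ± 0.24 (SE, limma adjusted p = 0.926, interval from -0.75 to 0.56), and it was 0.23 without IFRD1 null 1 and -0.43 without IFRD1 null 2.

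**Figure D2:**
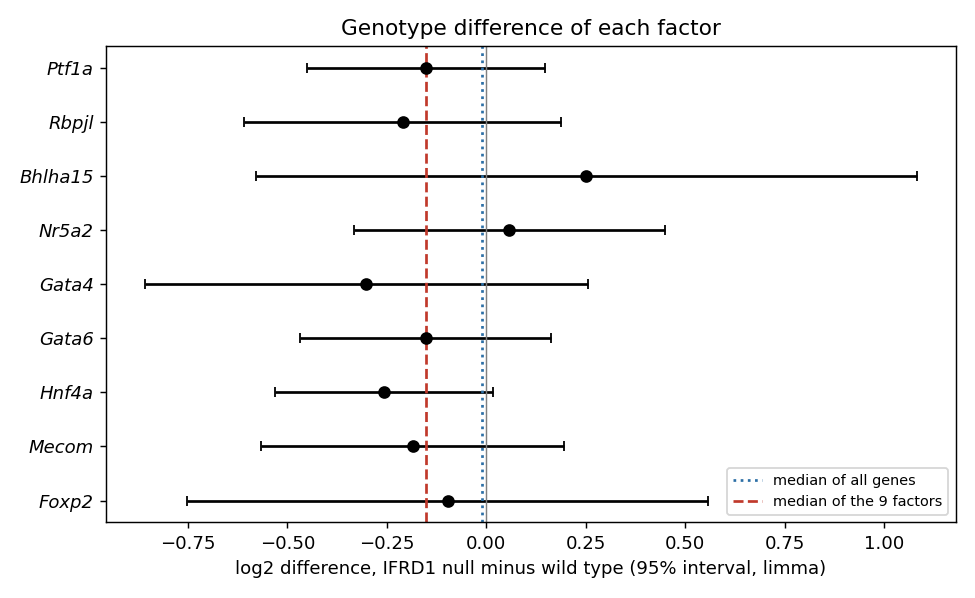
Log2 difference of each factor, IFRD1 null minus wild type (horizontal axis), with limma's 95% interval (n = 2 arrays each). The dashed line is the median of the 9 factors (-0.15) and the dotted line the median of all genes (-0.01). All 9 intervals take in 0, and Hnf4a comes nearest to leaving it, with an upper bound of 0.02.

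For 7 of 9 factors, all but Gata6 and Mecom, the null mice lay farther from each other than the wild-type mice did. This was not particular to the factors. Over all genes the null arrays had the lowest correlation of any pair, 0.986, and the wild-type arrays the highest, 0.991. IFRD1 null 1 lay below IFRD1 null 2 for 8 of 9 factors, as 11096 of all 22180 genes did, and the median gap was -0.26. Between the wild-type arrays the median gap was 0.08, with wild type 1 lower for 3 of 9. Ordered by size, the gaps of the null pair were -0.83 for Bhlha15, -0.66 for Foxp2, -0.54 for Gata4, -0.31 for Rbpjl, -0.26 for Nr5a2, -0.15 for Ptf1a, -0.12 for Mecom, -0.12 for Gata6 and 0.07 for Hnf4a. Of all genes 95.2% had a smaller gap than Foxp2 and 91.2% a smaller gap than Gata4, while 46.6% had a smaller gap than Ptf1a and 24.0% a smaller one than Hnf4a. Against the wild-type mean, the median factor of IFRD1 null 1 lay at -0.23 and that of IFRD1 null 2 at -0.05. The genotype median of -0.15 accordingly stood at -0.05 without IFRD1 null 1 and at -0.23 without IFRD1 null 2.

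**Figure D3:**
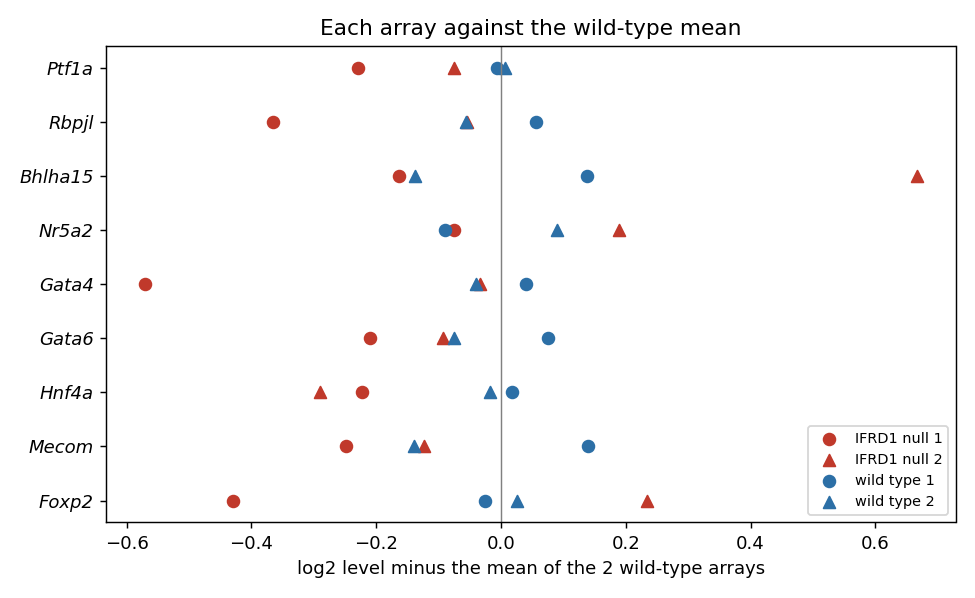
Log2 level of each factor minus the mean of both wild-type arrays (horizontal axis), for the IFRD1 null arrays (red) and the wild-type arrays (blue), with circles for replicate 1 and triangles for replicate 2. IFRD1 null 1 is below 0 for all 9 factors, and IFRD1 null 2 reaches 0.67 for Bhlha15 and -0.29 for Hnf4a.

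Other acinar genes were split between the null mice as well, and by more. Acinar genes that are neither factors nor enzymes, among them the secretory granule protein Sycn (gap of -0.63), the muscarinic receptor Chrm3 (-0.39) and the methyltransferase Gnmt (-1.25), were lower in IFRD1 null 1 for 15 of 16, with a median gap of -0.72. Digestive enzymes were lower there for 19 of 19, with a median gap of -0.45. The trypsinogen genes Prss1 and Try4 had gaps of -0.08 and -0.11, while Ctrb1, a chymotrypsinogen at the top of the scale, stood at 13.92 in both null arrays and 13.90 in both wild-type arrays. The summed levels of the other acinar genes were 19907 and 34452 in IFRD1 null 1 and 2, against 26226 and 25301 in wild type 1 and 2. Markers of most, but not all, other cell types ran the opposite way. Macrophage markers were higher in IFRD1 null 1 for 12 of 12 (median gap 0.65), B and plasma cell markers for 9 of 9 (1.12), adipocyte markers for 9 of 9 (1.22) and stellate cell and fibroblast markers for 12 of 12 (0.44). Higher in IFRD1 null 1 too were 8 of 9 markers of T and NK cells (median gap 0.25), 6 of 6 of mesothelium (0.26) and 9 of 11 of duct cells (0.19). Intestinal markers were lower there for 12 of 18 (median gap -0.15), in the direction of the acinar genes. Islet markers (6 lower and 7 higher, 0.00) and endothelial markers (3 lower and 9 higher, 0.04) showed little gap in the median. The summed levels were 6239 and 3898 for macrophage markers in IFRD1 null 1 and 2, against 5280 and 5755 in wild type 1 and 2, and 732 and 217 for B and plasma cell markers, against 332 and 318. The summed levels of adipocyte markers were 906 and 379, against 447 and 575, and those of stellate cell and fibroblast markers 10628 and 6934, against 9488 and 9211. Of the measured markers, 1 of B and plasma cells, 1 of adipocytes, 0 of macrophages and 0 of stellate cells lay below the median of all rows in every array. The part of cell mixture in the gap of the factors was not tested. Each array was also centred on the median of the 16 other acinar genes, which was 8.80 and 9.87 in IFRD1 null 1 and 2. This raised the null gap of every gene by the same amount, which was larger than any gap of the factors. The gap was thus bound to lie above 0 for all 9 factors, and it ran from 0.24 for Bhlha15 to 1.14 for Hnf4a. Its sign says nothing about the factors. The genotype median, which this centring hardly shifts, was -0.15 with 7 of 9 lower.

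**Figure D4:**
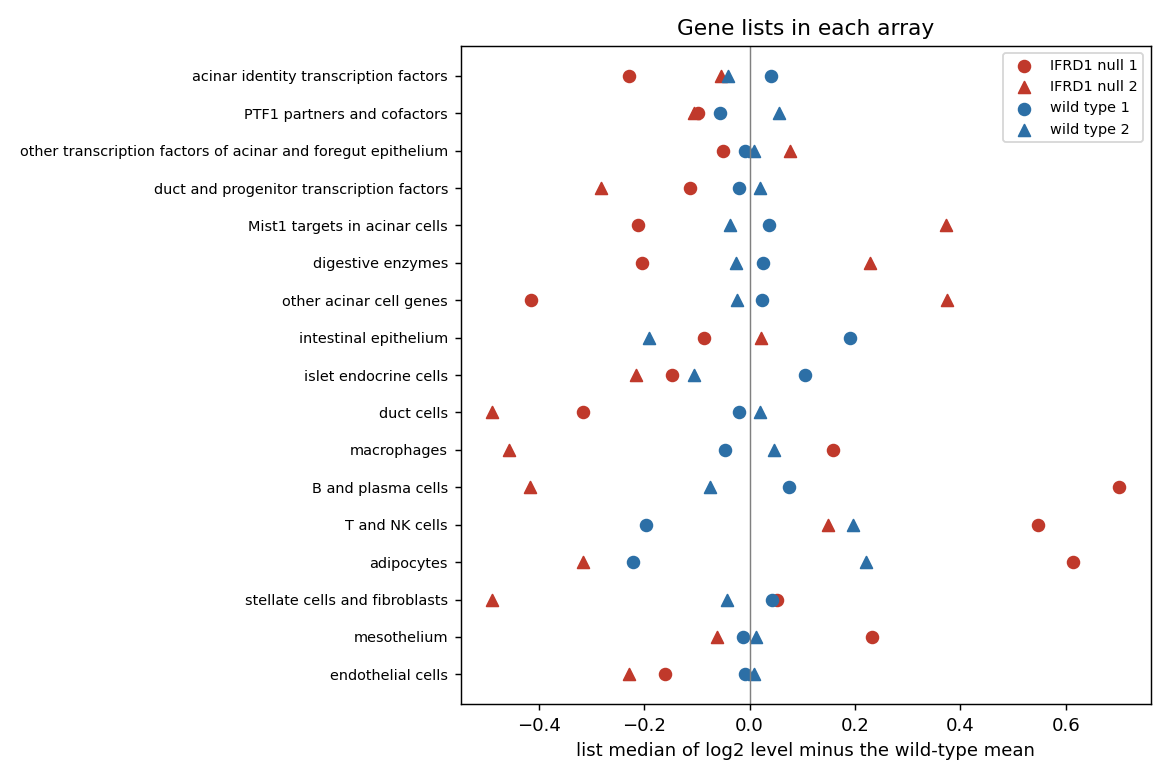
Median over each gene list of the log2 level minus the wild-type mean (horizontal axis), for the IFRD1 null arrays (red) and the wild-type arrays (blue), with circles for replicate 1 and triangles for replicate 2. In the null pair acinar lists and the lists of adipocytes, macrophages and B and plasma cells are spread in opposite directions, and the acinar identity factors (-0.23 and -0.05) are spread less than the other acinar cell genes (-0.41 and 0.37).

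The genes closest in pattern to the 3 most variable factors were found by the distance between centred log2 values over the 4 arrays, among the 11090 genes above the median level. Bhlha15 was nearest to Gstm7, a glutathione transferase, at a distance of 0.06, followed by the amylase gene Amy2b (0.10), Slc17a9, a vesicular nucleotide transporter (0.11), Myo15b (0.11) and Tsga10ip (0.13). Amy2b stood at 8.74 and 9.60 in the null arrays, against 8.94 and 8.72 in the wild-type arrays. For Amy2b, IFRD1 null 2 was the highest array, and IFRD1 null 1 lay between the wild-type values, close to wild type 2. Foxp2 was nearest to Tmem248 (0.03), Cabcoco1 (0.03), Iscu, an iron-sulfur cluster scaffold (0.04), Cd164l2 (0.04) and Uck2, a uridine-cytidine kinase (0.04). Gata4 was nearest to Oxnad1 (0.03), Large2, a glycosyltransferase (0.04), Slc44a3 (0.05), Ppp2ca, the catalytic subunit of a protein phosphatase (0.06), and Sstr2, a somatostatin receptor (0.06). With 4 arrays such distances describe these samples only.

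Further transcription factors of acinar and foregut epithelium showed no common direction. Of 17 measured, 8 were higher and 9 lower in the null (median -0.01), and 0 passed limma's test. Xbp1, the driver of secretory cell expansion, stood at 10.52 and 10.73 in the null, against 10.68 and 10.88 in wild type, a difference of -0.16 ± 0.14 (SE). Creb3l1 and Atf6, both membrane-bound factors of the secretory pathway, were at -0.16 ± 0.20 and -0.01 ± 0.26, and Foxa2 and Foxa3, pioneer factors of endoderm, at -0.02 ± 0.13 and -0.09 ± 0.13. Id1, an inhibitor that sequesters E proteins away from bHLH factors, was at 6.03 and 5.75 in the null arrays, against 5.51 and 5.50 in the wild-type arrays. Both null arrays were higher, by 0.38 ± 0.14 in the mean, and the gene did not pass (limma adjusted p = 0.721). Id2 was at 0.15 ± 0.12 and Id3 at 0.17 ± 0.18.

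Duct and progenitor factors, which acinar cells take up during metaplasia, had the same median as the acinar factors, -0.15, with 8 of 11 lower and 0 past the test. Hes1, an effector of Notch signalling, was at 6.64 and 6.60 in the null arrays, against 6.94 and 7.06 in the wild-type arrays. The groups did not overlap, and the difference of -0.38 ± 0.11 (SE, limma adjusted p = 0.721) was larger than the spread between replicates. Klf4 was at -0.36 ± 0.17 and Onecut1 at -0.15 ± 0.14. Sox9, the main duct factor, stood at 8.02 and 8.62 in the null, against 8.17 and 8.10 in wild type, a difference of 0.19 ± 0.22, and it was higher in IFRD1 null 2 along with the acinar genes. Between the null arrays the list as a whole had a median gap of 0.04, against -0.26 for the acinar factors.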

How the data were processed

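Biotin-labelled total RNA of whole pancreas was measured on Affymetrix arrays, per the labels. The authors deposited 1 value per array and transcript cluster, read here as log2 expression. The log base, background correction, probe summary and normalization are not given in the sources used here. Reading them as log2 rests on the values, which ran from 0.218 to 13.9 with array medians of 4.08 to 4.15. Of 41345 rows, 23521 had 1 gene symbol in the platform annotation, 1814 had several and 16010 had none, and 22180 genes were kept by their brightest row. No detection call was used, and the number of arrays limits the precision.

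Groups were compared with limma 3.58.1 in R 4.3.3 (lmFit and eBayes, no covariates, two-sided, Benjamini-Hochberg over all genes), as IFRD1 null minus wild type, and the code was tested on simulated data. SE is limma's moderated standard error. Promoters and gene identifiers come from RefSeq tables (GRCm38.p6), and no coordinates beyond those of the promoters are given. The factors and gene lists were chosen with earlier results of these data known. Genes are named as follows: all factors, Ifrd1, sex-linked genes, members of the lists of factors, cofactors and Bhlha15 targets, from each marker list set beside a factor's genotype difference, and from the acinar lists, the brightest member and the pair with the smallest p, and for the 3 factors of widest range the 5 nearest genes. Agr2 and Lgals4 are named besides, for their wide gap between the wild-type arrays. Arrays with the same replicate number were not treated as pairs in the main fit, since the labels do not give such a pairing. The deviations of same-numbered arrays had a correlation of -0.04 across genes, which cannot exclude a shared litter or day. Alternatives were other normalizations, a filter on dim genes, trend and robust eBayes, the replicate number as a block, averaged rows, leaving out X and Y genes, centring on acinar genes, and leaving out each array.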

Additional observations from a re-analysis of the deposited data

How the results depend on the processing

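None of the 9 factors passed limma's test under any of the 13 alternatives (lowest adjusted p = 0.473 over 117 values). Signs turned for 3 factors, each with an array left out: Bhlha15 ran from -0.16 to 0.67, Foxp2 from -0.43 to 0.23 and Nr5a2 from -0.075 to 0.19, with -0.03 for Nr5a2 without wild type 1. The median of the 9 factors was below 0 throughout. It was -0.08 with quantile normalization, -0.20 with median centring of arrays and -0.09 with cyclic loess. Over all genes the median was -0.003, -0.06 and -0.005 in the same order. With an array left out, the median of the factors ran from -0.23 to -0.05. The median gap of the null pair ran from -0.29 to -0.24 over the other normalizations, averaged rows and the filter on dim genes. Centring on other acinar genes was applied to this gap and to the count of calls after seeing the data. The gap then became 0.81, above 0 for all 9 factors, as the constant shift of that centring requires. Over all genes the single call became 4 with quantile normalization, 4 with cyclic loess, 5 with median centring, 5 with trend and robust eBayes, 0 among genes above the median level, 0 without genes of X and Y, and from 0 to 0 with each array left out. With arrays centred on other acinar genes 7 genes were called, Ighg3, Lypd8 and Muc13 besides Uty, Xist, Kdm5d and Eif2s3y, while the count at an unadjusted p under 0.05 was 32, against 1532 without that centring. With the replicate number as a block it was 4 genes, with no factor among them. The alternatives shifted the median of all genes by less than 0.1. Of 203 medians of the other lists under the alternatives, 37 moved by more than the spread between replicates.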
